A study of Mus musculus with 30 samples.

Results

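The genes examined were 45 mouse genes that sense DNA damage or repair it, chosen by name from the gene symbols of the array's probe annotation. They cover homologous recombination, the Fanconi anaemia pathway, end joining, base excision and single-strand break repair, mismatch repair, nucleotide excision repair, the checkpoint kinases with the p53 regulator Mdm2, and the Gadd45 genes. Of the 45, 43 had a probe set that carries their symbol alone, out of 19938 genes measured, and Trp53 and Xrcc2 were not analysed here. Each was followed through quiescence and injury in satellite cells, which are stem cells that rebuild muscle fibres. Quiescent satellite cells (QSCs) came from uninjured hindlimb muscle, and activated satellite cells (ASCs) from muscle taken 36, 60 or 84 h after barium chloride (BaCl2) injury. From C57BL6 wild-type mice, VCAM-positive cells that lacked CD31, CD45 and Sca1 were sorted, in young mice (2 to 3 months) as QSCs and at all 3 times, and in old mice (22 to 24 months) as QSCs and at 60 h. From young Pax7CreER/+;ROSA26eYFP/+ mice of the same age given Tamoxifen, YFP-positive cells were sorted as QSCs and at the same 3 times. The YFP sort collects cells in which Cre driven by Pax7 had recombined the reporter, and their descendants. The YFP and VCAM groups therefore differ in genotype, Tamoxifen and sort together, which cannot be told apart. Each of the 10 groups had 3 arrays, and the labels do not say whether these came from separate animals, so p-values measure only the spread between these arrays.

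Cells repair DNA by separate routes that suit the lesion and the phase of the cell cycle. Homologous recombination copies the sister chromatid and is used in S and G2 phase, whereas end joining rejoins broken ends without a template and is open to cells that do not divide. Small base lesions, mismatches and bulky adducts each have an excision pathway, and the kinases Atm, Atr, Chek1 and Chek2 halt the cycle while repair proceeds. Satellite cells are out of the cycle in uninjured muscle and enter it after injury.

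All values are log2 intensities, so a difference of 1 is a 2-fold difference, and levels of different genes are not compared because each probe set has its own response. A gene is called higher or lower in a comparison at a Benjamini-Hochberg adjusted p under 0.05 over all 19938 genes with a fold of at least 1.5 (limma, two-sided). The SD within groups, pooled over the 10 groups, had a median of 0.082 over the 43 genes and reached 0.132. The QSC arrays held the RNA of Pax7, the defining transcription factor of these cells, at 10.91 to 11.73, and the ASC arrays at 8.83 to 10.05. Although CD45-positive cells were excluded from the VCAM sort, Ptprc, which encodes CD45, lay at 6.05 to 6.43 in the QSC arrays and 7.42 to 9.54 in the ASC arrays. The mean of 24 monocyte and macrophage markers lay at 6.31 to 6.55 in the QSC arrays and 7.63 to 9.46 in the ASC arrays. In RNA of sorted populations, fewer cells of a type and less RNA per cell cannot be told apart, and what part cells of other types have in the values below was not tested.

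Most repair genes stood higher in activated than in quiescent cells. In young VCAM cells at 36 h, 21 of 43 were called higher, against 13.2% of all genes, and 2 were called lower, against 9.72% of all genes. At 60 h the counts were 29 higher (16.6% of all genes) and 4 lower (12.6%), and at 84 h 26 higher (16.4%) and 3 lower (11.2%). The median change over the 43 genes was 0.55 at 36 h, 0.88 at 60 h and 0.84 at 84 h, while the median over all genes lay between -0.04 and -0.01. Of the 43 genes, 20 were called higher at all 3 times, 2 were called lower at all 3, and 8 were called at none. The shares of all genes that meet these joint rules were not counted. The arrays of ASCs and QSCs did not overlap for 38, 41 and 41 of the 43 genes at 36, 60 and 84 h. These include every called gene and also genes that were not called. The share of all genes without overlap was not counted, so this adds nothing to the calls.

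**Figure D1:**
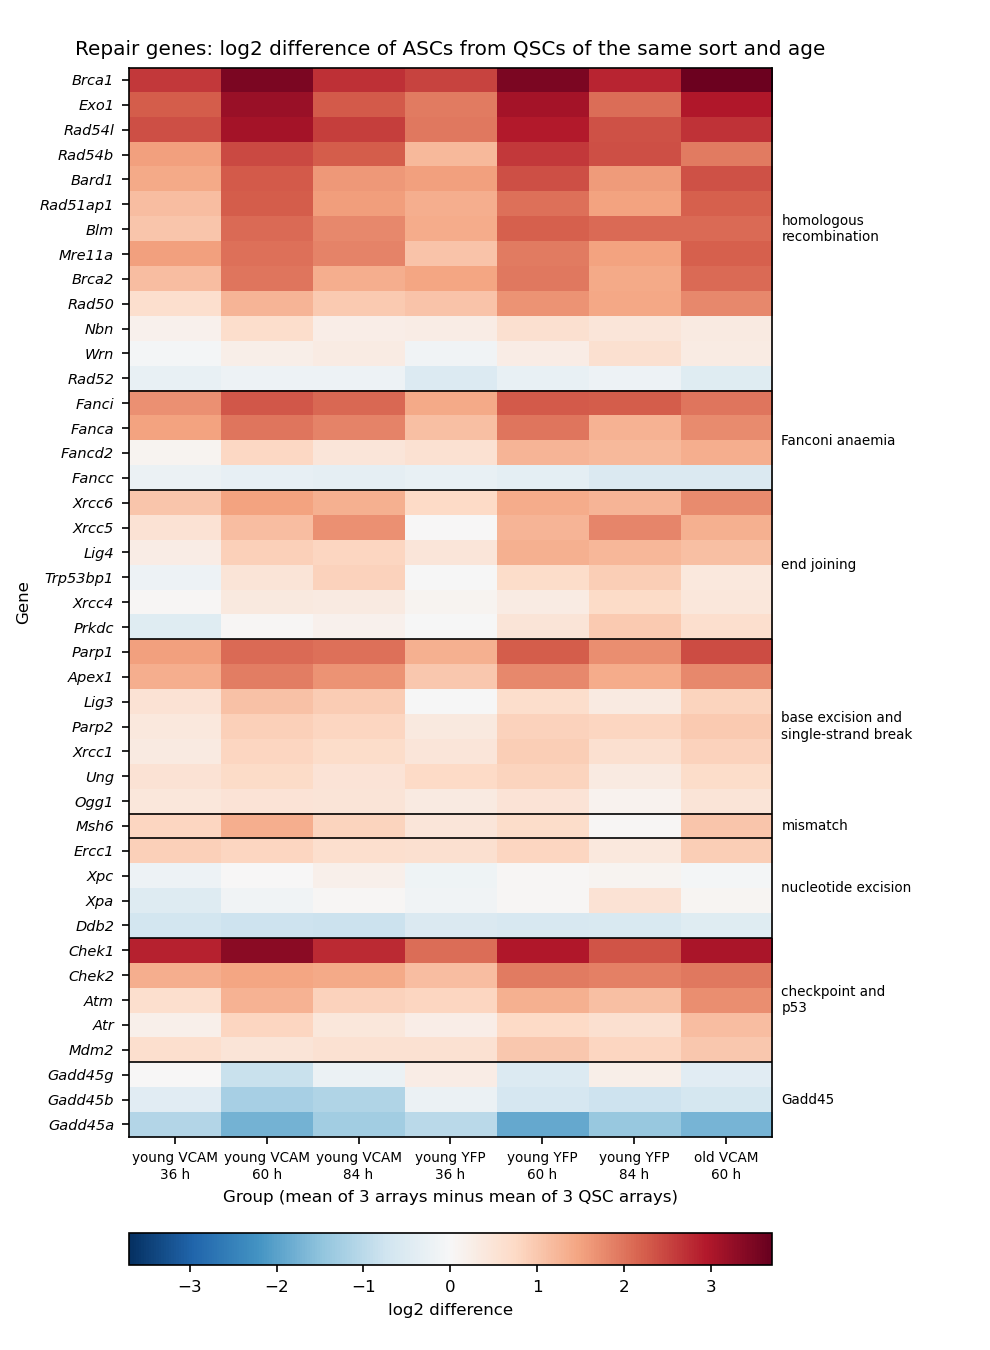
Colour gives the log2 difference of the mean of 3 ASC arrays from the mean of 3 QSC arrays of the same sort and age, for each of the 43 repair genes (rows, grouped by pathway) in 7 groups (columns). Brca1, Exo1, Rad54l and Chek1 are among the darkest red in every column, from 2.08 to 3.33 for Chek1, and the Gadd45 genes at the foot include the largest falls, down to -1.91 for Gadd45a.

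Among the repair pathways, the genes of homologous recombination rose the furthest as a group. The lists of replication and mitosis genes rose further, as given below. At 60 h 11 of 13 were called higher (16.6% of all genes) and 0 lower (12.6%), with a median change of 2.10. Brca1, which with Bard1 forms a ubiquitin ligase that promotes recombination, measured 6.29, 6.18 and 6.47 in the 3 young VCAM QSC arrays and 8.86, 8.93 and 9.01 at 36 h. At 60 h it measured 9.72, 9.87 and 9.83, and at 84 h 8.998, 9.01 and 9.07. Every ASC array was above every QSC array, and the 60 h arrays were above those of both other times. The change at 60 h was 3.49 with a standard error of 0.08 (11.3-fold, adjusted p = 2.74e-23), the largest among the 43 genes. Exo1, the exonuclease that resects broken ends, measured 6.57, 6.29 and 6.12 in QSCs and 8.52, 8.45 and 8.74 at 36 h. It measured 9.43, 9.55 and 9.56 at 60 h and 8.57, 8.55 and 8.70 at 84 h. The 60 h arrays were again the highest, with a change from QSCs of 3.19 ± 0.10 (SE) and an adjusted p of 2.01e-20. Rad54l, a motor protein that aids strand exchange, rose by 3.08, its relative Rad54b by 2.43, and the recombination factor Rad51ap1 by 2.24 from a QSC mean of 5.80, a dim level at which a fold can be understated. Low as well were the young VCAM QSC means of Brca1 (6.31), Exo1 (6.33), Bard1 (6.43) and the Fanconi gene Fanci (6.23). Bard1 rose by 2.27 on its brightest probe set, and by 1.04 and 0.79 on the others. The helicase Blm, the Mre11a nuclease and the recombination mediator Brca2 rose by 2.10, 2.02 and 1.98.

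Within homologous recombination, 2 of the 13 genes were not called at 60 h. They were the annealing protein Rad52 at -0.18 and the helicase Wrn at 0.23. Mre11a, Rad50 and Nbn encode 1 complex that binds broken ends, and they did not move alike, with changes of 2.02, 1.25 and 0.66. The call for Nbn rests on its brighter probe set, since the other measured -0.41, and the mean of both gave 0.13 with no call. Of the 4 Fanconi anaemia genes, which act on DNA crosslinks, 3 were called higher at 60 h (16.6% of all genes). Fanci rose by 2.30, Fanca by 1.97 and Fancd2 by 0.75, and the core complex gene Fancc measured -0.30.

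End joining genes moved less in young VCAM cells at 36 and 60 h. At 36 h 1 of 6 was called higher, at 60 h 3 and at 84 h 4, with medians of 0.16, 0.68 and 0.83. The shares of all genes were 13.2%, 16.6% and 16.4%, so the count at 36 h is near that of all genes. Xrcc6 and Xrcc5 encode the Ku70 and Ku80 subunits that cap broken ends. Xrcc6 rose by 1.02 at 36 h and by 1.503 at 60 h. Xrcc5 measured 9.64, 9.77 and 9.84 in QSCs, 10.18, 10.32 and 10.31 at 36 h, 10.86, 10.88 and 10.90 at 60 h, and 11.43, 11.46 and 11.44 at 84 h. It thus stood highest at 84 h, with no overlap between successive times. Prkdc, the catalytic subunit of the kinase that Ku recruits, measured -0.45, 0.04 and 0.15 at the 3 times in these cells and was called at none. Lig4, the ligase of this pathway, rose by 0.88 at 60 h, its partner Xrcc4 measured 0.36, and Trp53bp1, which shields ends from resection, was called at 84 h alone, at 0.86.

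Of 7 genes of base excision and single-strand break repair, 6 were called higher at 60 h (16.6% of all genes) and 0 lower (12.6%). Parp1, which senses strand breaks, rose by 2.09 ± 0.06 (SE, adjusted p = 1.19e-20), from a mean of 8.63 ± 0.08 (SD, n = 3) to 10.72 ± 0.08 (SD, n = 3). Apex1, the endonuclease that cuts at abasic sites, rose by 1.88 ± 0.06 (SE). Lig3, Parp2, Xrcc1 and Ung rose by 1.10, 0.87, 0.79 and 0.71, and the 8-oxoguanine glycosylase Ogg1, at 0.52, was not called. The mismatch recognition gene Msh6 rose by 1.34. In nucleotide excision repair, the Ercc1 nuclease subunit rose by 0.79, while the damage recognition gene Xpc measured 0.01 and Xpa -0.13. Ddb2, which recognises ultraviolet lesions, was lower at all 3 times in young VCAM cells, at -0.69, -0.77 and -0.78. Its arrays measured 7.23, 7.21 and 7.37 in QSCs and between 6.33 and 6.65 in all 9 ASC arrays of young VCAM cells, which are also low levels. In young YFP cells Ddb2 was called lower at 60 h alone, a call lost after quantile normalization. With array medians centred it was called at 36 and 84 h in YFP cells as well. In old VCAM cells at 60 h it was not called.

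Among the checkpoint genes, 4 of 5 were called higher at 60 h (16.6% of all genes). Chek1, the kinase that acts downstream of Atr when replication stalls, measured 7.35, 7.66 and 7.44 in QSCs and 10.32, 10.29 and 10.38 at 36 h. It measured 10.81, 10.79 and 10.82 at 60 h and 10.26, 10.25 and 10.26 at 84 h. All of its ASC arrays were more than 2 units above its QSC arrays, and the change at 60 h was 3.33 ± 0.07 (SE, adjusted p = 3.85e-24). Chek2, which Atm activates at double-strand breaks, rose by 1.35 at 36 h, 1.45 at 60 h and 1.40 at 84 h. Atm rose by 0.62, 1.28 and 0.85, and Atr, which measured 0.18 at 36 h, rose by 0.78 at 60 h. Mdm2, the ubiquitin ligase that degrades p53 and is itself a p53 target, measured 10.21, 10.40 and 10.27 in QSCs, 10.90, 10.88 and 10.92 at 36 h, 10.78, 10.73 and 10.80 at 60 h, and 10.89, 10.90 and 10.81 at 84 h. In these young VCAM cells all ASC arrays lay above the QSC arrays. The change passed the 1.5-fold threshold at 36 h (0.61) and not at 60 h (0.48) or 84 h (0.58). From QSCs to 60 h the mean of Mdm2 went from 10.41 to 11.41 in young YFP cells and from 10.28 to 11.27 in old VCAM cells. Both of these rises were of more than 1.5-fold. The 36 h call in young VCAM cells was lost without young VCAM QSC replicate 1, at 0.57. It was also short of the threshold after quantile normalization, at 0.51, or with array medians centred, at 0.58.

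The Gadd45 genes encode small stress-induced proteins that bind cell cycle and repair proteins, and they moved opposite to most of the others. At 60 h 3 of 3 were called lower (12.6% of all genes). Gadd45a measured 11.75, 11.73 and 11.77 in young VCAM QSCs, 10.67, 10.64 and 10.73 at 36 h, 9.996, 10.01 and 10.03 at 60 h, and 10.47, 10.48 and 10.45 at 84 h. No 2 times overlapped, and the lowest values were those at 60 h, a change of -1.74 ± 0.04 (SE) with an adjusted p of 4.99e-23. Gadd45b measured 12.36, 12.36 and 12.39 in QSCs, 11.95, 11.93 and 12.01 at 36 h, 11.15, 11.14 and 11.13 at 60 h, and 11.18, 11.29 and 11.30 at 84 h. It was called at 60 h (-1.23) and 84 h (-1.11), and not at 36 h (-0.41). Gadd45g measured 10.56, 10.56 and 10.62 in QSCs, 10.53, 10.58 and 10.66 at 36 h, 9.72, 9.75 and 9.83 at 60 h, and 10.34, 10.33 and 10.45 at 84 h. It was lower at 60 h alone (-0.81), with QSC and 36 h arrays overlapping. The same cells showed lower levels of immediate early and stress genes, of which 18 of 19 were called lower at 60 h, with a list mean of 12.21 in QSCs and 9.68 at 60 h. Cells were digested from muscle and sorted before RNA was taken, so all levels are those after isolation, and what part isolation has in them was not tested.

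**Figure D2:**
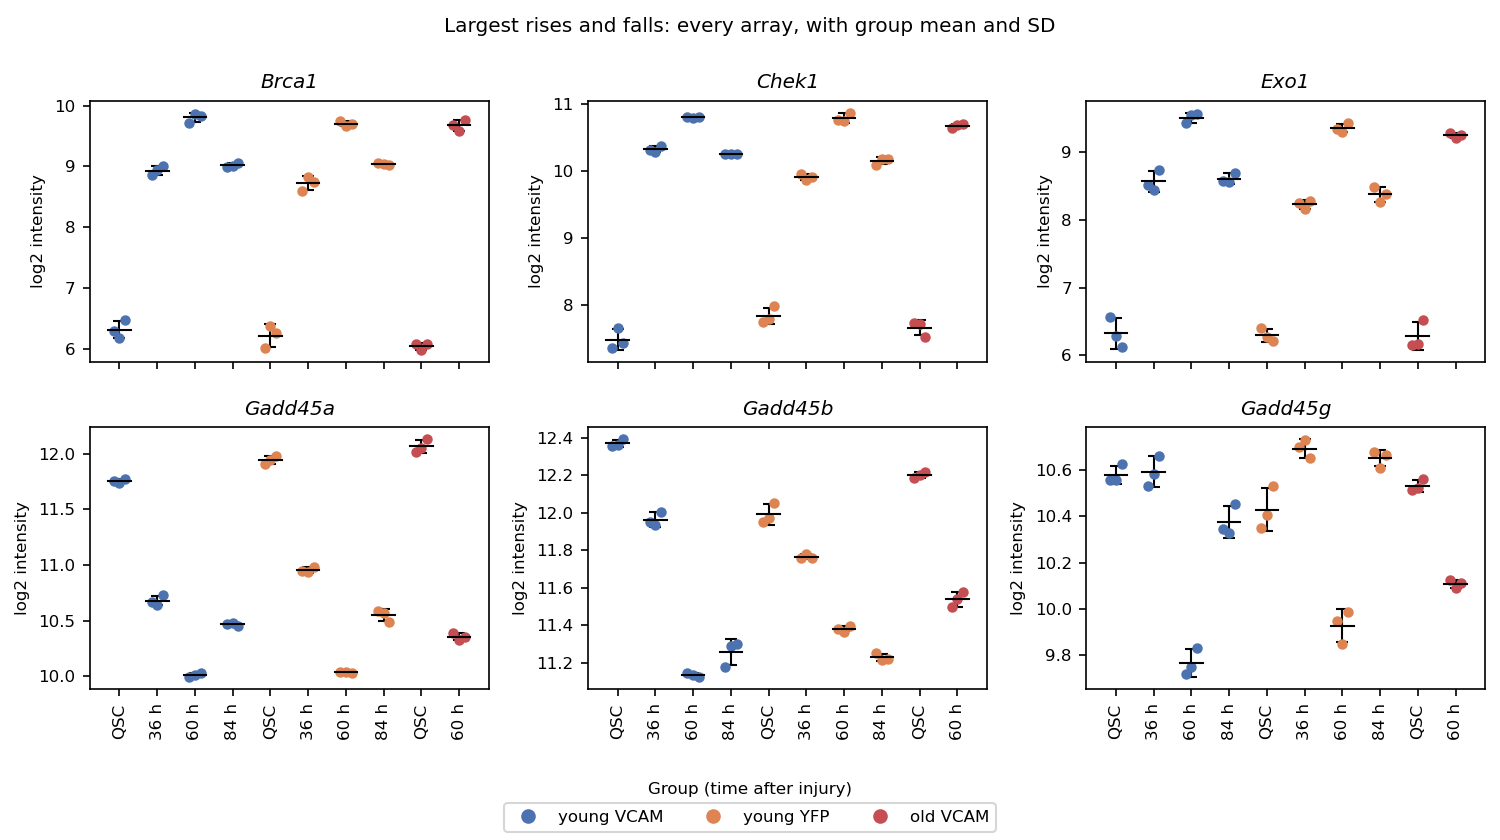
Each point is the log2 intensity of 1 array for the 3 largest rises (Brca1, Chek1, Exo1) and the 3 largest falls (Gadd45a, Gadd45b, Gadd45g) at 60 h in young VCAM cells, over the 10 groups, with a bar for the mean and whiskers for the SD of 3 arrays, and with a vertical axis of its own in each panel. The 60 h arrays are the highest of each sort for the upper genes, and for Gadd45a and Gadd45g they are the lowest.

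Promoter sequence was read for all repair genes with an entry, those called higher at 60 h and the others. RefSeq windows of 250 bases before to 50 after a start annotated for the gene (GRCm38.p6) were held for 34 of the 43 genes. They were searched on both strands for fixed letters. The start of a window need not be the first base of the annotated gene. Letters of E2F sites (TTTGGCGC, TTTCCCGC, TTTCGCGC or TTTGCCGC), which bind the factors of S phase entry, were in 5 of 34 genes, or 14.7%, and in 2.26% of 32851 windows. All 5, Bard1, Brca2, Chek2, Msh6 and Xrcc6, were among the 24 genes with a window that were called higher at 60 h, and 0 of the other 10 genes held them. The comparison is a description with no test. The CCAAT letters were in 20 of the 34 genes (58.8%) and in 37.4% of windows. They were in 13 of the 24 genes called higher and in 7 of the other 10. TTTGAA, letters of the cell cycle homology region, was in 1 gene (Bard1) and in 17.9% of windows. The cAMP element TGACGTCA was in 1 gene (Brca2) and in 1.79% of windows. The AP-1 letters TGACTCA or TGAGTCA were in 0 genes and in 5.2% of windows, and a pair of p53 half-sites in 0 genes and in 0.0731% of windows. At so low a share, 0 of 34 genes cannot show that these genes lack p53 sites. Sequence outside the windows was not searched. The 250 bases before the start used for the window are shown for the 4 genes whose E2F letters lie before it, with those letters in capitals. For Brca2, Chek2 and Xrcc6 the annotated gene begins earlier, at 150522297, 110839800 and 81987833. Their E2F letters therefore lie within the annotated gene, and only those of Bard1 lie upstream of it. GCGGGAAA is TTTCCCGC read on the other strand.
Bard1, chr1:71102973-71103222, minus strand: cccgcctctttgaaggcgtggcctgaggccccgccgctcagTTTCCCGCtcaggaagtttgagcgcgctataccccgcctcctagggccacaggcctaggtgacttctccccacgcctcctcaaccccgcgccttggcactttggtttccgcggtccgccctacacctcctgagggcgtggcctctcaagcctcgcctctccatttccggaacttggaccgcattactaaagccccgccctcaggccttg
Brca2, chr5:150522371-150522620, plus strand: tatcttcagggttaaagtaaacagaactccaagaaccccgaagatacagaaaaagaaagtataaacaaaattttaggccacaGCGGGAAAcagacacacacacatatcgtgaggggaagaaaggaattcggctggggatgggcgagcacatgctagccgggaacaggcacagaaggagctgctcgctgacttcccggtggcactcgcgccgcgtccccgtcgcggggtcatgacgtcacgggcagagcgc
Chek2, chr5:110839733-110839982, plus strand: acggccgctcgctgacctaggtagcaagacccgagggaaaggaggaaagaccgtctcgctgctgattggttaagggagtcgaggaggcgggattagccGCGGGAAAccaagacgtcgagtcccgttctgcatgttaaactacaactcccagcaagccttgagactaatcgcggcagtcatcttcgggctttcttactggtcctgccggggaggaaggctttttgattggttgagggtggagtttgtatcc
Xrcc6, chr15:82016119-82016368, plus strand: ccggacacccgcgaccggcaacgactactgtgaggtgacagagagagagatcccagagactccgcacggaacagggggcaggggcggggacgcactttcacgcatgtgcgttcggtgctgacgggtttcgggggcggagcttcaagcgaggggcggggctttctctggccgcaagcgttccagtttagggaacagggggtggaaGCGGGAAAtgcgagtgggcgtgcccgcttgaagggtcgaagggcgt
The 150 bases before the start are also shown for the 3 Gadd45 genes, with CCAAT in capitals. None of their windows held the E2F letters, and neither did Brca1, the largest rise. The letters were in 5 of the 24 genes called higher, so their absence does not set the Gadd45 genes apart.
Gadd45a, chr6:67037408-67037557, minus strand: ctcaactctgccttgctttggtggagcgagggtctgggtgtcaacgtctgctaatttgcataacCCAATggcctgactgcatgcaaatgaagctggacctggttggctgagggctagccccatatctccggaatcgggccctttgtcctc
Gadd45b, chr10:80929941-80930090, plus strand: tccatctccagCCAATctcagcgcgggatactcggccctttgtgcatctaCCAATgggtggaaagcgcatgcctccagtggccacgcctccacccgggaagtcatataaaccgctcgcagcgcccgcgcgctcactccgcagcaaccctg
Gadd45g, chr13:51846525-51846674, plus strand: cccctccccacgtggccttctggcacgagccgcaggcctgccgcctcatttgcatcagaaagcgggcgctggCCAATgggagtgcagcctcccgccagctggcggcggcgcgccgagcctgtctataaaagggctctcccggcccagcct

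The highest of the 4 times was 60 h for 29 of the 43 genes in young VCAM cells and for 30 in young YFP cells. QSCs held the highest mean for 5 genes in both sorts, namely Ddb2, Fancc, Gadd45a, Gadd45b and Rad52, and 84 h held it for 6 and 7. Between 36 and 60 h, 16 genes were called higher (6.26% of all genes) and 3 lower (8.49%), the last being the 3 Gadd45 genes. Rad51ap1 and Blm moved by most, by 1.11 and 1.07, and Chek1, at 0.48, was not called. With array medians centred, which moved the median of all genes to 0.11, the count of higher genes was 26 and the Gadd45a call (-0.67) was lost at -0.56. Between 60 and 84 h, 5 genes were called lower (0.732% of all genes) and 1 higher (3.22%). The falls called were in recombination genes, Exo1 (-0.90), Brca1 (-0.78), Rad51ap1 (-0.70), Bard1 (-0.66) and Brca2 (-0.64), and Gadd45g rose by 0.61. With array medians centred, which moved the median of all genes to -0.09, Rad54l, the mismatch gene Msh6 and the checkpoint gene Chek1 were called lower as well. The call for Bard1 was lost without 84 h replicate 1 or with the mean of its probe sets (-0.52). The call for Brca2 was lost without 60 h replicate 3, and that for Gadd45g without 60 h replicate 1 or 84 h replicate 3 or with array medians centred (0.52). The means of 20 replication genes and 19 mitosis genes, all called higher at 60 h against QSCs, were 7.96 and 6.76 in young VCAM QSCs. They went from 10.76 to 10.29 and from 10.42 to 10.18 between 60 and 84 h.

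The time course in YFP-sorted cells, with its own QSC arrays, gave similar counts. At 36 h 20 genes were called higher (10.1% of all genes) and 1 lower (6.14%), at 60 h 31 higher (17.2%) and 3 lower (12.8%), and at 84 h 29 higher (17.0%) and 2 lower (11.2%). At 60 h the medians were 1.00 over the 43 genes and -0.03 over all genes. Brca1 measured 6.01, 6.38 and 6.25 in YFP QSCs and 9.74, 9.66 and 9.71 at 60 h, a change of 3.49. Chek1 measured 7.74, 7.79 and 7.98 against 10.77, 10.75 and 10.88, a change of 2.96. Exo1 measured 6.40, 6.27 and 6.21 against 9.35, 9.30 and 9.43, a change of 3.07. Every 60 h array of these 3 genes again lay above every QSC array. Gadd45a measured 11.91, 11.94 and 11.98 in YFP QSCs and 10.04, 10.04 and 10.03 at 60 h (-1.91). Gadd45b measured 11.95, 11.97 and 12.05 against 11.38, 11.37 and 11.39 (-0.61), and this call was lost without YFP QSC replicate 3, at -0.58. Gadd45g measured 10.35, 10.41 and 10.53 against 9.95, 9.85 and 9.99, and its change of -0.50 was not called. At 84 h all 6 end joining genes were called higher in YFP cells, with a median of 1.10, and Prkdc rose by 0.97. The call for Xrcc4 (0.72) was lost after quantile normalization. Over the young VCAM, young YFP and old VCAM comparisons at 60 h, 28 genes were called higher in each, Gadd45a and Gadd45b were called lower in each, and Fancc, Ogg1, Rad52, Wrn, Xpa, Xpc and Xrcc4 were called in none. Shares of all genes for these joint counts were not counted.

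**Figure D3:**
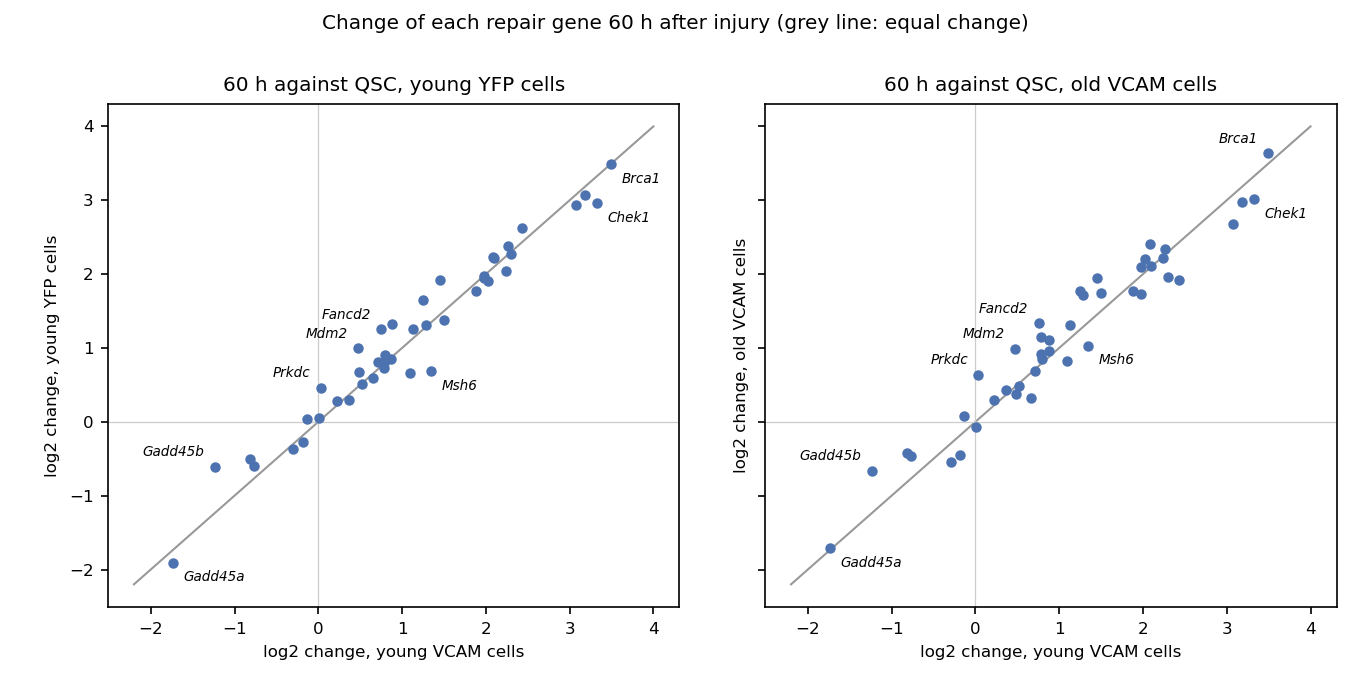
Each point is 1 of the 43 repair genes, placed by its log2 change from QSCs at 60 h in young VCAM cells (horizontal) and in young YFP cells (left) or old VCAM cells (right), each against QSCs of its own sort and age, with a grey line for equal change. The points run along the line from Gadd45a, at -1.74 in young VCAM cells, to Brca1, at 3.49, with Msh6 below the line and Mdm2, Prkdc and Fancd2 above it.

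Few repair genes differed by 1.5-fold or more between the sorts at the same time. In QSCs 1 was called higher in YFP cells (1.82% of all genes) and 1 lower (1.74%), and by the adjusted p alone 7 were higher (14.8%) and 10 lower (15.2%). Msh6 was higher by 0.60, a call lost without VCAM QSC replicate 1 (0.48), and Fancd2 was lower (-0.59), a call lost without VCAM QSC replicate 3 or YFP QSC replicate 1 or with array medians centred (-0.53). At 36 h 0 genes were called higher (2.49% of all genes) and 1 lower (2.78%), and by the adjusted p alone 4 were higher (17.7%) and 14 lower (19.6%). The gene called was Chek2, which measured 8.28, 8.17 and 8.30 in VCAM cells and 7.38, 7.56 and 7.59 in YFP cells, without overlap (-0.74 ± 0.10 SE, adjusted p = 5.89e-07). At the same time all 14 endothelial markers were called higher in the YFP cells, with a list mean of 9.65 against 8.47, and the mitosis genes stood at 9.13 against 9.48. Other list means differed too, at 11.3 in YFP against 10.7 in VCAM cells for satellite cell markers and 10.47 against 11.25 for fibroblast markers. The part of these lists in the result was not tested. At 60 h 1 gene was called higher (0.757%) and 0 lower (0.557%), and by the adjusted p alone 3 were higher (7.56%) and 2 lower (5.06%). The gene called was Mdm2, which measured 11.40, 11.45 and 11.39 in YFP cells and 10.78, 10.73 and 10.80 in VCAM cells (0.64 ± 0.05 SE, adjusted p = 1.27e-10). Of the 24 macrophage markers, 13 were called higher in the YFP cells at 60 h, with a list mean of 8.31 against 7.68 in VCAM cells. The list means of fibroblast markers were 8.90 in YFP and 9.67 in VCAM cells, and those of endothelial markers 7.46 and 7.04. The part of these lists in the result was not tested. At 84 h 0 genes were called in either direction, against 1.21% of all genes higher and 0.446% lower, and by the adjusted p alone 7 were higher (10.8%) and 6 lower (9.88%). The test of a different response at 36 h, YFP minus VCAM, called 0 genes higher (4.61% of all genes) and 1 lower (4.47%). It was Chek1, which rose by 2.85 in VCAM and by 2.08 in YFP cells.

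In old mice, repair genes rose after injury as well. In old VCAM cells at 60 h, 30 were called higher (17.8% of all genes) and 2 lower (11.7%), with medians of 1.11 over the 43 genes and -0.11 over all genes. Brca1 measured 6.07, 5.97 and 6.07 in old QSCs and 9.68, 9.58 and 9.76 at 60 h, a change of 3.64. Chek1 went from 7.74, 7.72 and 7.53 to 10.64, 10.69 and 10.70, and Exo1 from 6.15, 6.17 and 6.52 to 9.29, 9.22 and 9.26. Every old 60 h array of these 3 genes lay above every old QSC array. Gadd45a fell by 1.71 and Gadd45b by 0.66 on the log2 scale, and Gadd45g, at -0.42, was not called. The test of a different response at 60 h, old minus young, called 1 gene higher (6.81% of all genes) and 0 lower (2.16%). It was Prkdc at 0.60, a call lost without any 1 of 4 arrays and under other scalings. Fancd2 measured 0.58 in this test, Gadd45b 0.57, Rad50 0.53 and Mdm2 0.51, all short of the fold threshold, and Fancd2 passed it after quantile normalization. With array medians centred Rad54b was called lower.

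Before injury, old cells stood lower in a part of the repair genes. In QSCs 0 genes were called higher (3.04% of all genes) and 6 were called lower (4.7%), with medians of -0.17 over the 43 genes and 0.02 over all genes. By the adjusted p alone, without a fold threshold, 5 were higher (16.7% of all genes) and 22 lower (21.3%). Chek2 measured 6.78, 7.02 and 6.90 in young and 5.95, 6.18 and 6.32 in old VCAM QSCs, a difference of -0.75 ± 0.10 (SE, adjusted p = 3.8e-07). The old values are dim, around the level of 6 used for the filter on dim genes, where a difference can be understated. Fancd2 measured 8.06, 8.06 and 8.12 in young and 7.35, 7.30 and 7.42 in old cells (-0.72). Atm measured 8.53, 8.59 and 8.62 in young and 7.97, 7.94 and 7.74 in old cells (-0.70 ± 0.06 SE, adjusted p = 5.18e-10). No young array of these 3 genes overlapped an old one. Prkdc measured 7.98, 8.23 and 8.19 in young and 7.48, 7.44 and 7.48 in old cells (-0.67). Xrcc5 measured 9.64, 9.77 and 9.84 in young and 9.18, 9.05 and 9.13 in old cells (-0.63). Rad50, the sixth, was also lower (-0.61). The arrays of these 3 genes did not overlap either. The call for Rad50 was lost without young QSC replicate 2 or old QSC replicate 1 or 2, and that for Xrcc5 without young QSC replicate 3. Both were also lost after quantile normalization, each at -0.57. By role, the 6 include 2 checkpoint kinases, 2 end joining genes, 1 gene of homologous recombination and 1 Fanconi anaemia gene.

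The young YFP QSCs, also from mice of 2 to 3 months, were set beside these 6 genes. Chek2 measured 6.15, 6.37 and 6.56 in them, Fancd2 7.37, 7.56 and 7.52, and Rad50 8.38, 8.30 and 8.33, and each of the 3 genes had arrays that overlapped the old VCAM QSCs. Prkdc, at 7.59, 7.64 and 7.73, and Atm, at 8.19, 8.42 and 8.37, lay between young and old VCAM QSCs. Xrcc5 measured 9.68, 9.77 and 9.86, close to young VCAM QSCs and above every old array. Set against the young YFP QSCs, in a comparison added after the values were seen that crosses sort and genotype, the old VCAM QSCs had 2 genes called lower (1.78% of all genes) and 0 higher (1.87%). They were Xrcc5 at -0.65 ± 0.05 (SE, adjusted p = 4.98e-10) and Xrcc6, the other Ku subunit, at -0.60. Atm was at -0.44, Chek2 at -0.21, Prkdc at -0.19, Fancd2 at -0.13 and Rad50 at -0.09, none of them called. Against young VCAM QSCs, Xrcc6 had measured -0.51. The mean of the 19 mitosis genes was 6.76 in young VCAM, 6.47 in young YFP and 6.37 in old VCAM QSCs, with 6 of 19 called lower in old than in young VCAM cells. In the same comparison 3 of 12 satellite cell markers were lower (list means 11.79 in old and 12.13 in young), as were 5 of 12 pericyte and smooth muscle markers (9.77 and 10.25), and 3 of 12 neutrophil markers were higher (6.28 and 5.96). Of 13 fibroblast markers 5 were higher and 4 lower. The part of these lists in the result was not tested.

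**Figure D4:**
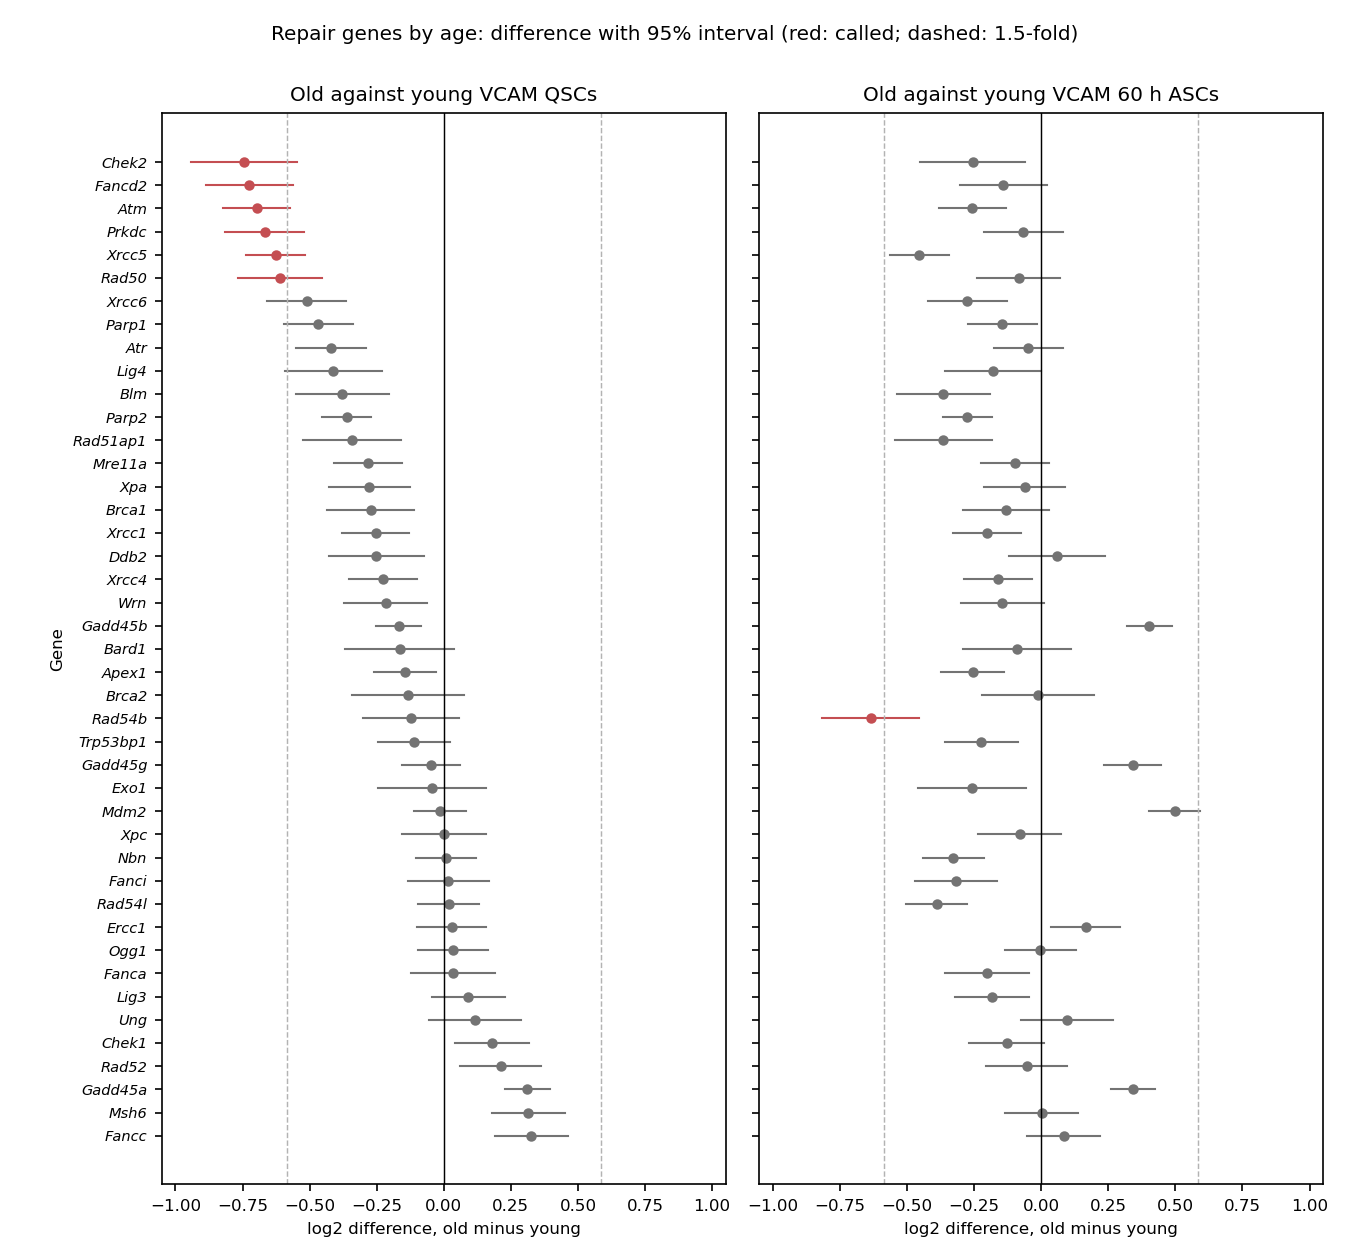
Points give the log2 difference of old from young VCAM cells for each repair gene in QSCs (left) and in 60 h ASCs (right), with 95% intervals from the fit, dashed lines at 1.5-fold and red for called genes. In QSCs the red points run from Chek2, at -0.75, to Rad50, at -0.61, and at 60 h Rad54b, at -0.64, is the red point.

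At 60 h after injury, differences between old and young cells were mostly under 1.5-fold. Of the 43, 0 were called higher (4.75% of all genes) and 1 lower (0.657%), and by the adjusted p alone 5 were higher (14.2% of all genes) and 17 lower (13.7%). Rad54b measured 8.85, 8.93 and 8.997 in young and 8.33, 8.16 and 8.39 in old cells, without overlap (-0.64 ± 0.09 SE, adjusted p = 2.02e-06), and the call was lost without old 60 h replicate 2, at -0.57. Chek2 measured 8.24, 8.45 and 8.37 in young and 7.97, 8.22 and 8.11 in old cells, and Fancd2 8.74, 8.80 and 8.96 against 8.64, 8.60 and 8.84. Prkdc measured 7.98, 8.20 and 8.33 against 8.09, 8.03 and 8.18, with overlap. Neither Atm (-0.26) nor Rad50 (-0.08) was called, and Xrcc5, at 10.86, 10.88 and 10.90 in young and 10.40, 10.37 and 10.51 in old cells, measured -0.45. Mdm2 measured 10.78, 10.73 and 10.80 in young and 11.23, 11.27 and 11.30 in old cells, 0.50 higher and short of the threshold. Gadd45a, Gadd45b and Gadd45g measured 0.34, 0.40 and 0.34. The old cells at 60 h also held more RNA of macrophage markers, 23 of 24 being called higher with a list mean of 9.36 against 7.68, and less of 4 of 19 mitosis genes. Markers called higher in old cells were also 9 of 14 endothelial, 7 of 13 fibroblast and 6 of 12 pericyte and smooth muscle genes, with list means of 7.80 against 7.04, 10.42 against 9.67 and 8.75 against 8.20. Of 19 immediate early and stress genes 11 were higher, with a list mean of 10.36 against 9.68. The part of these lists in the values was not tested.

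A further 111 measured genes of the same pathways were followed as fixed lists. At 36, 60 and 84 h in young VCAM cells, 29, 51 and 42 of the 111 were called higher and 11, 8 and 9 lower, against 13.2%, 16.6% and 16.4% of all genes higher and 9.72%, 12.6% and 11.2% lower. At 60 h, 14 of 24 other recombination and Fanconi genes were called higher, led by the resolvase Gen1 (3.26) and the helicase Brip1 (3.03). Of 16 other checkpoint genes 13 were higher, with Clspn (2.77), the adaptor of Chek1, and Topbp1 (2.47), which activates Atr, among them. Of 15 other base excision genes 6 were higher, with Neil3 at 2.91 and the replicative Lig1 and Fen1 at 2.75 and 2.57. Of 7 other end joining genes 2 were higher, Polq, a polymerase that joins ends by microhomology, at 2.34 and Rif1 at 0.70. Of 20 p53 targets and regulators 5 were higher and 6 lower, with Ccng1 at 1.79 and Fas, Trp53inp1 and Sesn1 at -3.46, -1.76 and -1.66. In old against young VCAM QSCs, 13 of the 111 were called lower (4.7% of all genes) and 4 higher (3.04%). The lower genes include the checkpoint genes Rad1 (-0.98) and Tipin (-0.92) and the stress gene Sesn1 (-1.07). At 60 h, 2 of the 111 were called higher in old cells (4.75% of all genes) and 0 lower (0.657%).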

How the data were processed

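Sorted satellite cells were profiled on 30 Mouse Gene 1.0 ST arrays (Affymetrix). The table deposited by the authors holds log2 intensities, and the submitters' processing notes name RMA and Affymetrix Expression Console. RMA corrects background, quantile-normalizes and summarises probes. Their versions are not given in the sources used for this work. Of 35556 probe sets, 21789 carried 1 symbol in the platform annotation. For each of 19938 genes the probe set with the highest mean was used. Array medians were 7.03 to 7.16, and no gene was filtered. The number of arrays limits the precision.

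A mean per group was fitted to all 30 arrays with limma 3.58.1 in R 4.3.3 (lmFit, eBayes, 20 residual degrees of freedom), and adjusted p values come from this fit. The fit was tested on simulated data. The genes, lists and tests were chosen with earlier results of these data known. Values in every array are given for the 3 largest called rises and falls at 60 h, genes called by age or, at 36 h, by sort, the Gadd45 genes and Mdm2, and for others where a comparison turns on them, chosen after their values were seen. Other pathway genes named are among the 4 largest called changes of their list. Replicate numbers were checked as pairs between groups. After removal of group means, 27 of 135 same-numbered pairs of arrays correlated above 0.1, and 25 of 270 other pairs did. The mean correlations were 0.035 and -0.018, so same-numbered arrays were somewhat more alike. The main fit used no pairing, and a replicate block was run as an alternative. Alternatives were centred medians, quantile normalization, the mean of probe sets, a filter on dim genes, the compared arrays alone, trend and robust eBayes, a replicate block, the adjusted p alone, each array left out and, added later, young YFP QSCs as the young group. Promoter letters were searched in RefSeq windows (GRCm38.p6).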

Additional observations from a re-analysis of the deposited data

Results flagged for a closer look

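A test of the difference between responses set 2 results apart. Prkdc, the catalytic subunit of the end joining kinase, changed by 0.04 from QSCs to 60 h in young VCAM cells and by 0.64 in old ones, and the difference of the responses was 0.60 ± 0.10 (SE, limma adjusted p = 3.63e-05). The call was lost without young QSC replicate 2 (0.55) or 3 (0.57), young 60 h replicate 1 (0.50) or old 60 h replicate 3 (0.56), and with centred medians (0.50) or quantile normalization (0.57). In young YFP cells the change at 60 h was 0.46. The mean of Prkdc at 60 h was 8.17 in young and 8.10 in old VCAM cells, so the difference lay mainly in QSCs. There the mean was 8.13 in young VCAM, 7.47 in old VCAM and 7.66 in young YFP cells. Chek1, the replication checkpoint kinase, rose by 2.85 at 36 h in young VCAM cells and by 2.08 in young YFP cells, and the difference of the responses was -0.77 ± 0.10 (SE, limma adjusted p = 4.32e-07). YFP cells stood higher in QSCs by 0.36 and lower at 36 h by 0.42 (log2 -0.42), and at 60 h the sorts differed by -0.01.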

How the results depend on the processing

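No call reversed under any alternative run. The replicate block changed no call and left every count as it was. For example, at 60 h in young VCAM cells it gave 29 genes higher and 4 lower. Every group holds the same replicate numbers, so the block cannot change a log2 difference, only its standard error and p-value. In the 60 h comparison 0 genes met the fold threshold and missed the adjusted p, so the fold threshold decided the calls. The unchanged counts therefore cannot show whether the replicates differed as batches. By the adjusted p alone, in place of the fold threshold, the counts of lower genes were 9 at 36 h (27.9% of all genes) and 6 at 84 h (30.4%) in young VCAM cells, 5, 6 and 5 at 36, 60 and 84 h in YFP cells (25%, 31.1% and 34.1%) and 6 at 60 h in old cells (39.3%). The higher count was then 32 from 36 to 60 h (26.8%), and from 60 to 84 h 5 were higher (14.6%) and 17 lower (13.4%). YFP against VCAM then gave 7 higher (14.8%) and 10 lower (15.2%) in QSCs, 4 (17.7%) and 14 (19.6%) at 36 h, 3 (7.56%) and 2 (5.06%) at 60 h and 7 (10.8%) and 6 (9.88%) at 84 h. Old against young gave 5 (16.7%) and 22 (21.3%) in QSCs and 5 (14.2%) and 17 (13.7%) at 60 h, and the tests of different responses gave 10 (18.7%) and 7 (12.6%) by age and 7 (14.9%) and 12 (16.3%) by sort. With array medians centred, which ended 9 calls, 26 were higher from 36 to 60 h (9.99% of all genes against 6.26% uncentred), 0 higher (2.53%) and 8 lower (1.39%) from 60 to 84 h, 3 and 4 lower at 36 and 84 h in YFP cells (7.95% and 12.8%), 0 lower in YFP against VCAM QSCs (1.34%), 0 higher (5.1%) and 1 lower (3.72%) in the response by age and 2 lower in that by sort (5.73%). With centring the median of all genes was 0.11 from 36 to 60 h, -0.12 in old against young cells at 60 h, -0.14 in the response by age, and -0.15 and -0.14 at 36 and 84 h in YFP cells. After quantile normalization, which ended 26 calls, 2 were higher from 60 to 84 h (2.84%), 2 lower at 36 h in YFP cells (7.59%), 5 lower at 60 h in old cells (14.7%) and 2 lower in the response by sort (4.4%). With young YFP QSCs as the young group 2 genes were lower in old QSCs. Leaving out 1 array at a time gave 0 to 1 higher from 60 to 84 h, 1 to 2 lower at 36 h and 1 to 3 at 60 h in YFP cells, 0 to 1 higher and 0 to 2 lower in YFP against VCAM QSCs, 0 to 1 lower in old against young cells at 60 h, 0 to 3 higher and 0 to 1 lower in the response by age and 1 to 2 lower in that by sort. Of 241 calls 24 were lost without some array, all at sizes between 0.48 and 0.58. The adjusted p alone gives larger counts because it drops the fold threshold, and the cause of the other moves was not tested. The filter on dim genes, the compared arrays alone, trend and robust eBayes and the mean of probe sets kept every count within 1.5 times. With 3 arrays in a group and no stated animals, the spread between mice is unknown.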
